A study of Mus musculus with 6 samples.

Results

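Chdh encodes choline dehydrogenase, the mitochondrial enzyme that begins the conversion of choline to betaine. Chdh and 9 further genes of choline and betaine metabolism, Aldh7a1, Bhmt, Bhmt2, Dmgdh, Sardh, Pemt, Chka, Chkb and Slc44a1, were taken by gene name from a testis count table of 26743 genes. Chdh was chosen because its count differed strongly between the genotypes in this same comparison and because it is known to be needed for sperm motility, so its own difference is given as a description. The other 9 genes were chosen as enzymes or carriers of the pathway. All 10 had a row, and 9 of them passed the filter on low counts, Dmgdh being the exception.

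Strand-specific, ribosome-depleted RNA-seq was carried out on whole testes of 3 WT and 3 Trf2-/- male mice, both at post-natal day 21, when haploid spermatids form in the first wave of spermatogenesis. Trf2, listed in the table as Tbpl1, encodes a relative of the TATA-box binding protein, and the comparison asks which testis transcripts depend on it. The labels name no other allele and no treatment in either genotype. How the Trf2 allele was built is not given in the sources used here. Reads on genes ran from 21582123 to 29859347 in WT mice and from 15187062 to 24530489 in Trf2-/- mice. A count of 0 allows up to 3 counts, which is 0.105 to 0.144 CPM in the former and 0.119 to 0.19 CPM in the latter. CPM here is the count scaled to library size with TMM factors, and this limit covers counting error only. Tbpl1 itself stood at 295 ± 12.5 CPM in WT and 61.0 ± 4.6 CPM in Trf2-/- testis (SD, n = 3), a log2 fold change of -2.27 (standard error 0.06), and each library labelled Trf2-/- was below each WT library. As these are whole organs, fewer cells of a type and less RNA per cell cannot be told apart.

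Choline enters cells through carriers such as Slc44a1 and then follows either of a pair of routes. Choline kinases, Chka and Chkb, direct it into phosphatidylcholine, which Pemt can also make by methylating phosphatidylethanolamine. In mitochondria, Chdh oxidises choline to betaine aldehyde, which aldehyde dehydrogenases such as Aldh7a1 convert to betaine. Bhmt uses betaine to methylate homocysteine, Bhmt2 is its close paralog with a preference for another methyl donor, and Dmgdh and Sardh remove the remaining methyl groups in sequence and pass them to folate. Betaine is also an osmolyte, and the best known sites of this pathway are liver and kidney.

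Chdh starts head to head with a neighbour, and Bhmt2 and Dmgdh start head to head with each other. The DNA between those starts is shown because it lies directly before an annotated start of both genes of a pair. Chdh runs on the plus strand of chromosome 14 from 30822209 to 30853652 in NCBIM37 (mm9), and Il17rb, an interleukin receptor gene, starts 126 bases away on the minus strand. The stretch shown, chr14:30822083-30822185 on the plus strand, stops at the first start that RefSeq gives for Chdh, 23 bases before the GENCODE start. RefSeq also gives Chdh starts 12280 and 13610 bases past the GENCODE start. Which of them is used in testis was not tested. The Bhmt2 and Dmgdh starts lie 130 bases apart at chr13:94444258-94444387, also shown on the plus strand.
Il17rb-Chdh: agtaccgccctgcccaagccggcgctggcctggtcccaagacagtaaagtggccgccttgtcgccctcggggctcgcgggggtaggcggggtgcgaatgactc
Bhmt2-Dmgdh: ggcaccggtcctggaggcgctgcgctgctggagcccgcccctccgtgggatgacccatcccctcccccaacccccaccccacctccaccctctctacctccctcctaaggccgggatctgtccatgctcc
Both stretches are rich in G and C, at 69.9% over 103 bases with 10 CG dinucleotides for Il17rb-Chdh and 70.8% over 130 bases with 6 for Bhmt2-Dmgdh. Neither holds TATAAA, the core of a TATA box, or TGACGTCA, the full cyclic AMP response element, on either strand, so no letters are in capitals. RefSeq start windows of 300 bases on GRCm38.p6 (250 before and 50 after a start) were searched for 9 of the 10 members. These were 13 windows in all, 3 of them for Chdh. All windows on the chromosome that holds Aldh7a1, the remaining member, were left out of the search. TATAAA was present in 1 of the 13, that of Chkb, where it began 109 bases before the start, and in 13.6% of all 32851 windows searched. TGACGTCA was in 0 of the 13 and in 1.79% of all windows searched. These are matches of letters only.

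Chdh was lower in every Trf2-/- mouse. It had 1794, 1620 and 1375 counts in WT mice 1 to 3 and 689, 707 and 384 counts in Trf2-/- mice 1 to 3. On the CPM scale these were 62.5, 62.0 and 66.0 in WT against 27.3, 30.3 and 24.3 in Trf2-/- testis. The lowest WT mouse stood above the highest mutant by a wide margin, and Trf2-/- mouse 3, also the shallowest library, was the lowest of all. The means were 63.5 ± 2.14 and 27.3 ± 3.02 CPM (SD, n = 3), so the mutants held 43.2% of the WT level, a log2 fold change of -1.21 (standard error 0.08). By the size of its decrease Chdh ranked 521st among 16924 tested genes. Its WT mice differed by 1.06-fold at most and its mutants by 1.25-fold, where the median tested gene differed by 1.12-fold and 1.18-fold.

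The next steps, from betaine aldehyde to dimethylglycine, did not pass the test. Aldh7a1, which oxidises betaine aldehyde and also aldehydes from lysine breakdown, was at 115, 120 and 107 CPM in WT and 124, 119 and 135 CPM in Trf2-/- mice. These ranges overlap, and the log2 fold change was 0.14 (standard error 0.06, edgeR adjusted p = 0.116). Bhmt, the betaine-dependent methyltransferase, was far more variable between mice. It stood at 7.25, 4.37 and 2.35 CPM in WT and at 8.77, 6.17 and 3.86 CPM in Trf2-/- mice, a 3.08-fold range among WT mice that exceeded that of 99.1% of tested genes. The mutants' 2.27-fold range exceeded that of 94.6% of tested genes. The log2 fold change of Bhmt was 0.43 (standard error 0.38, 95% interval -0.44 to 1.30, edgeR adjusted p = 0.418), so neither a 2-fold rise nor no change is outside the spread.
Bhmt2, whose product methylates homocysteine from S-methylmethionine, was close to the limit of detection, with 20, 11 and 9 counts in WT and 15, 15 and 3 counts in Trf2-/- mice. The 3 counts of Trf2-/- mouse 3 equal the limit that a count of 0 allows. Its log2 fold change was -0.06 (standard error 0.42, 95% interval -1.01 to 0.9, edgeR adjusted p = 0.929). It turned to 0.24 without Trf2-/- mouse 3 and to 0.23 without WT mouse 1. Taking the summed counts, 40 in WT and 33 in Trf2-/- testis, the depth-adjusted ratio was 0.97 with a 95% counting interval of 0.593 to 1.58. That counting interval leaves out the spread between mice, which was 3.39-fold among the mutants. For Bhmt2 no difference was detectable at this depth and spread, while for Bhmt the spread between mice set the width of the interval. Bhmt fell with the replicate number in both genotypes. With that number as a block its log2 fold change was 0.47 (standard error 0.15, edgeR adjusted p = 0.0597). Over all genes the replicate numbers did not pair the mice.

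Downstream of betaine, Dmgdh and Sardh encode the flavoenzymes that demethylate dimethylglycine and sarcosine. Dmgdh had 10, 4 and 6 counts in WT and 3 counts in each of the 3 Trf2-/- mice. The mutants sat at the limit that a count of 0 allows, and too few reads were present for the test. Its summed counts, 20 against 9, gave a depth-adjusted ratio of 0.529 with a 95% counting interval of 0.212 to 1.22. With every gene of at least 1 count tested, its log2 fold change was -0.88 (standard error 0.6, edgeR adjusted p = 0.364). Sardh was at 7.46, 7.78 and 8.4 CPM in WT and 9.6, 8.79 and 7.46 CPM in Trf2-/- mice. The lowest mouse of each genotype had the same rounded value, and the log2 fold change was 0.14 (standard error 0.12, edgeR adjusted p = 0.409).

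Among the 4 members that bring choline into the cell or into phospholipids, Pemt was the only one called, and its decrease was small. Pemt encodes the methyltransferase of the endoplasmic reticulum that builds phosphatidylcholine from phosphatidylethanolamine. It was at 17.5, 16.9 and 16.5 CPM in WT and 13.8, 13.6 and 14.8 CPM in Trf2-/- mice, with no overlap. Its log2 fold change of -0.27 (standard error 0.08, edgeR adjusted p = 0.031) leaves 82.7% of the WT level. The call was lost in 9 of 13 alternatives, 1 of them the 2-fold threshold, with adjusted p from 0.023 to 0.112 over them and a log2 fold change of -0.30 to -0.18. Leaving out WT mouse 1, 2 or 3 gave 0.104, 0.0924 and 0.0582, and leaving out Trf2-/- mouse 1 or 2 gave 0.0543 and 0.0634.
Chka, the more abundant choline kinase, was at 223, 206 and 214 CPM in WT and 189, 201 and 192 CPM in Trf2-/- mice. These ranges do not overlap, but the log2 fold change of -0.14 (standard error 0.05, edgeR adjusted p = 0.0543) did not pass the test. It passed without Trf2-/- mouse 2 (edgeR adjusted p = 0.0393) and when only genes with at least 10 counts in each mouse were tested (edgeR adjusted p = 0.0476). Chkb, which in muscle is the kinase whose loss causes dystrophy, was at 44.5, 45.1 and 42.1 CPM in WT and 48.6, 48.4 and 47.7 CPM in Trf2-/- mice. Its ranges were also apart, in the opposite direction, with a log2 fold change of 0.13 (standard error 0.05, edgeR adjusted p = 0.0867). Slc44a1, the choline carrier of the plasma and mitochondrial membranes, was at 30.4, 31.2 and 33.9 CPM in WT and 35.8, 33.3 and 35.7 CPM in Trf2-/- mice. Here the highest WT mouse lay above the lowest mutant, and the log2 fold change was 0.13 (standard error 0.07, edgeR adjusted p = 0.146).

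**Figure D1:**
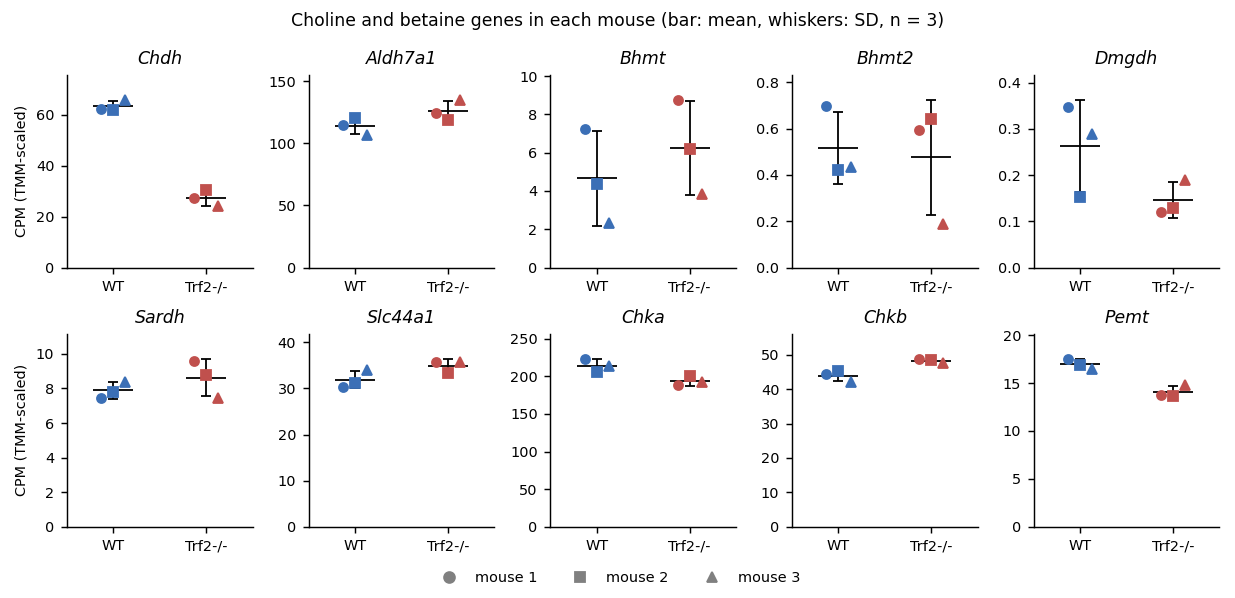
TMM-scaled CPM (vertical axis, from 0) of the 10 genes in WT (blue) and Trf2-/- (red) testis. Points are mice, with circle, square and triangle for mice 1, 2 and 3, the bar is the mean and whiskers are the SD (n = 3). The Chdh values, 62.0 to 66.0 in WT and 24.3 to 30.3 in Trf2-/- mice, are far apart, while those of Pemt, Chka and Chkb are apart by little and the other 6 genes overlap.

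Counted together, 2 of the 9 tested members were called lower (Chdh and Pemt) and 0 higher, at an edgeR adjusted p under 0.05. Over all 16924 tested genes 20.2% were called lower and 11.2% higher, 31.4% together. Without Chdh, 1 of 8 was called lower. The median log2 fold change of the 9 was 0.13, beside 0.04 over all tested genes. Chdh was the single member called lower at 2-fold or more, a class that held 4.3% of tested genes, with 0.609% higher by as much. In 3 members the mutants lay wholly below WT (Chdh, Chka and Pemt) and in 1 wholly above (Chkb), where 26.8% and 22.3% of all tested genes did so, 49.2% together. As Chdh was picked on this comparison, nothing is read from these shares. Scaling by library size alone called 3 members higher (Aldh7a1, Chkb and Slc44a1) and only Chdh lower.
The change in Chka relative to Chkb was also taken within each mouse. The log2 ratio of their levels per kilobase was 1.56, 1.42 and 1.58 in WT and 1.2, 1.29 and 1.25 in Trf2-/- mice. Each mutant was thus below each WT mouse, with a difference of -0.28 (two-sided exact permutation p = 0.1, the smallest that 3 mice against 3 can give). The log2 ratio of Bhmt to Bhmt2 differed by 0.76 (exact permutation p = 0.3) and that of Dmgdh to Sardh by -0.92 (exact permutation p = 0.2), each with overlapping ranges.

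Levels of different genes were compared per kilobase of the gene length in the deposited table. In WT testis Chka was highest, at 70.1 ± 2.84 CPM per kilobase (SD, n = 3). Chkb and Aldh7a1 followed at 24.4 ± 0.894 and 24.1 ± 1.42, within each other's range. Chdh came next at 10.3 ± 0.348, then Pemt at 8.06 ± 0.256 and Slc44a1 at 4.58 ± 0.26, each apart from the next. Bhmt at 2.05 ± 1.08 and Sardh at 1.57 ± 0.0954 overlapped. Bhmt2 at 0.209 ± 0.0633 and Dmgdh at 0.0771 ± 0.0293 were lowest. The kinases, Aldh7a1 and Chdh were therefore the highest of the members in WT testis RNA, whereas Bhmt2 and Dmgdh were close to the limit of detection. In Trf2-/- testis Chdh moved from the fourth to the sixth place, at 4.44 ± 0.491 CPM per kilobase. It then stood below Pemt at 6.69 ± 0.301 and below the mean of Slc44a1 at 5.02 ± 0.201, with overlapping ranges (3.94 to 4.92 for Chdh and 4.79 to 5.15 for Slc44a1), and the order of the other 9 genes was as in WT.

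**Figure D2:**
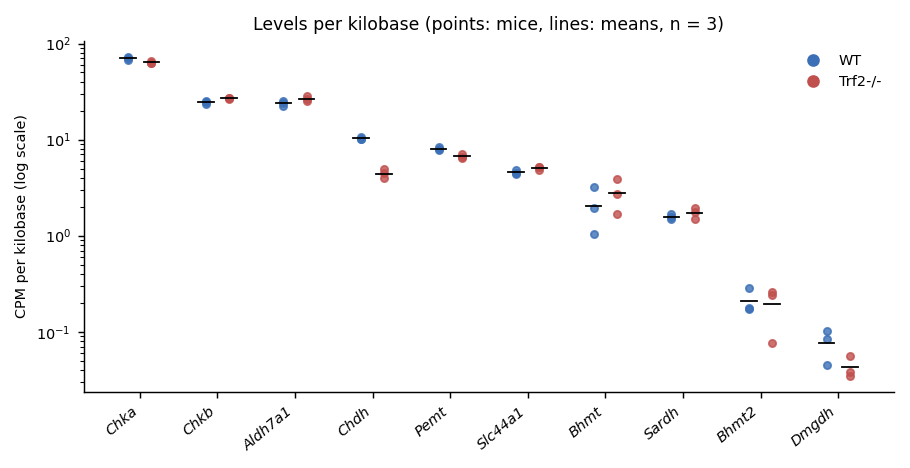
Level per kilobase of gene length (TMM-scaled CPM per kilobase, log axis) of each member in WT (blue) and Trf2-/- (red) mice, in the order of the WT means. Points are mice and lines are means (n = 3); Chdh falls from 10.3 to 4.44, and Bhmt shows the widest spread among mice within a genotype of the genes above 1.

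The wider pathway was read from a list of 68 further genes grouped by role, 67 of which had a row and 56 of which were tested. Of these, 11 were called lower and 13 higher, with a median log2 fold change of 0.06, beside 20.2% and 11.2% of all tested genes called lower and higher. Scaling by library size alone turned this into 6 lower and 24 higher. At 2-fold or more 1 gene was called, Mthfd2l.
Uptake and transport had 5 tested genes of 13, with 2 lower and 1 higher. Slc44a3, a relative of the Slc44a1 carrier, fell from 4.76 ± 0.209 to 2.49 ± 0.356 CPM (log2 fold change -0.91, edgeR adjusted p = 0.00256). Flvcr1, listed as Mfsd7b and now known as a choline importer, fell from 11.2 ± 1.18 to 8.72 ± 0.545 CPM (log2 fold change -0.36, edgeR adjusted p = 0.0403), and its relative Flvcr2, listed as Mfsd7c, rose from 59.0 ± 0.837 to 66.8 ± 2.52 CPM (log2 fold change 0.18, edgeR adjusted p = 0.0281). The 8 that were not tested had between 0 and 16 counts in any mouse, among them Slc5a7, the high-affinity choline carrier of cholinergic neurons, with 1 count in a single mouse.
Phospholipid synthesis had 3 of 11 tested genes lower and 1 higher. Pcyt2, the rate-limiting enzyme of the ethanolamine branch, fell from 71.2 ± 2.35 to 52.0 ± 4.69 CPM (log2 fold change -0.45, edgeR adjusted p = 0.00181). Ptdss2, a phosphatidylserine synthase, fell from 128 ± 6.93 to 98.9 ± 12.1 CPM (log2 fold change -0.37, edgeR adjusted p = 0.0114). Cept1, which joins diacylglycerol to activated choline or ethanolamine, rose from 21.6 ± 0.489 to 25.6 ± 2.01 CPM (log2 fold change 0.24, edgeR adjusted p = 0.0387).
Release of choline from phosphatidylcholine had 2 of 9 lower and 2 higher. Pnpla7 and Gde1, enzymes of lysophospholipid and glycerophosphodiester breakdown, fell by 0.26 and 0.34 on the log2 scale (edgeR adjusted p = 0.00722 and 0.0255). Pnpla6, a phospholipase, and Pld2, a phospholipase D that frees choline directly, had log2 fold changes of 0.31 and 0.65 (edgeR adjusted p = 0.00799 and 0.0109).

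The methionine and homocysteine cycle, which receives the betaine methyl group, had 3 of 13 tested genes higher and 0 lower. Mat2a, which makes S-adenosylmethionine outside the liver, rose from 340 ± 24.4 to 412 ± 17.0 CPM (log2 fold change 0.28, edgeR adjusted p = 0.0083). Ahcy, the S-adenosylhomocysteine hydrolase, was at 12.8, 14.4 and 14.2 CPM in WT and 16.7, 19.1 and 18.2 CPM in Trf2-/- mice (log2 fold change 0.38, edgeR adjusted p = 0.0132). Both were higher in every mutant than in every WT mouse.
The folate and glycine cleavage genes, which take up the methyl groups released by Dmgdh and Sardh, had 4 of 12 lower and 5 higher. Mthfd2l, a mitochondrial folate dehydrogenase, was at 8.4, 8.58 and 9.4 CPM in WT and 4.44, 4.89 and 2.91 CPM in Trf2-/- mice. Its decrease was the largest of the 56 (log2 fold change -1.08, standard error 0.18, edgeR adjusted p = 0.00213) and, as for Chdh, Trf2-/- mouse 3 was the lowest. Its paralog Mthfd2 rose from 58.8 ± 1.63 to 77.2 ± 3.11 CPM (log2 fold change 0.39, edgeR adjusted p = 0.00104), as did Mthfd1l, which frees formate in mitochondria, from 11.4 ± 0.155 to 16.2 ± 0.735 CPM (log2 fold change 0.50, edgeR adjusted p = 0.00232).
Electron acceptors and alternative aldehyde dehydrogenases had 1 of 5 higher. This was Etfa, a subunit of the flavoprotein that accepts electrons from Dmgdh and Sardh, at 33.5 ± 1.46 and 43.5 ± 1.3 CPM (log2 fold change 0.38, edgeR adjusted p = 0.00188). Of the genes of acetylcholine synthesis and breakdown only Bche was tested, and it was not called.

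**Figure D3:**
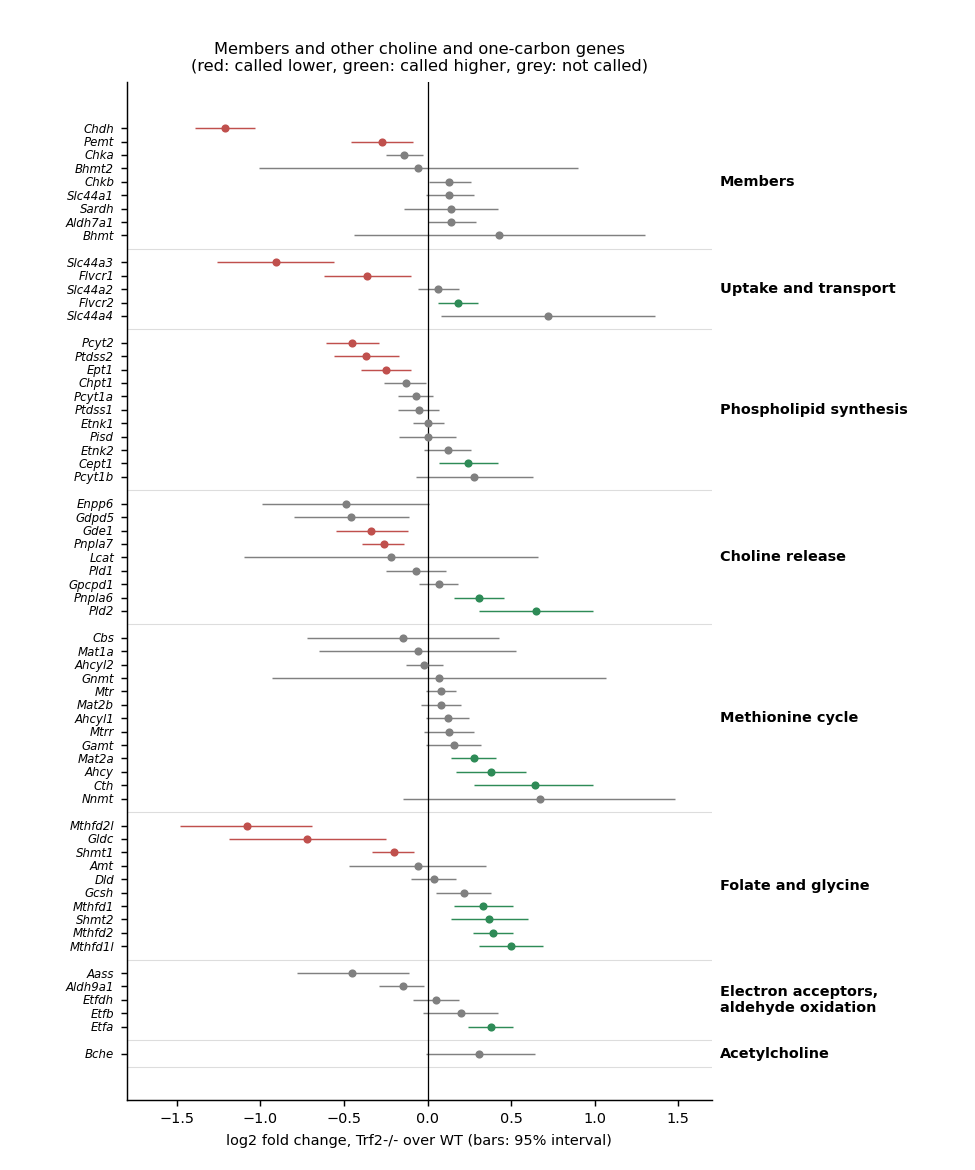
Log2 fold change, Trf2-/- over WT (horizontal axis), of the 9 tested members and of 54 of the 56 tested genes of the wider list, grouped by role. Points are edgeR estimates and bars their 95% intervals, with red for called lower, green for called higher and grey for not called; Chdh at -1.21 lies furthest to the left, followed by Mthfd2l at -1.08.

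Several members share DNA with a neighbour. Reads there could be counted on either gene, or on neither, if the counting did not use the strand. Whether it did is not given in the sources used here. Cacna1d, a calcium channel gene on the minus strand, overlaps the 3′ end of Chdh by 518 bases. It was at 16.1, 15.6 and 16.5 CPM in WT and 21.5, 17.1 and 23.8 CPM in Trf2-/- mice, a log2 fold change of 0.37 (standard error 0.12, edgeR adjusted p = 0.0408), opposite in direction to Chdh. Il17rb, on the other side of the sequence shown above, had 15, 37 and 16 counts in WT and 36, 42 and 52 counts in Trf2-/- mice. In CPM the highest WT mouse, 1.42, all but met the lowest mutant, 1.43. Its log2 fold change was 1.22 (standard error 0.42, 95% interval 0.27 to 2.16, edgeR adjusted p = 0.0538). Chdh was therefore lower while neither neighbour was lower, and the difference at Il17rb rests on few reads.
Chkb shares its strand and most of its span with Cpt1b, a carnitine palmitoyltransferase gene of muscle and heart. They overlap by 9459 bases on chromosome 15, and reads in shared exons would not be assigned to either gene by strand. Cpt1b fell from 7.27 ± 1.14 to 4.41 ± 0.901 CPM (log2 fold change -0.71, standard error 0.18, edgeR adjusted p = 0.0166). C730034F03Rik, which overlaps the start of Chkb by 320 bases on the other strand, fell from 9.46 ± 0.978 to 6.22 ± 0.576 CPM (log2 fold change -0.60, standard error 0.13, edgeR adjusted p = 0.00712). Chkb itself, with a log2 fold change of 0.13, did not pass the test, and its value is uncertain to the extent that reads were shared or left uncounted.
Phax, an RNA export adaptor gene that overlaps Aldh7a1 by 10509 bases on the other strand, rose from 34.7 ± 1.23 to 39.6 ± 1.63 CPM (log2 fold change 0.19, edgeR adjusted p = 0.0384). Tcirg1, a proton pump subunit gene 1680 bases past the end of Chka, had a log2 fold change of 0.28 (edgeR adjusted p = 0.124). Gm16066, which overlaps Chka by 647 bases, and AW495222, which overlaps Dmgdh by 12994, had at most 11 and 2 counts in any mouse and were not tested. Gm15622 at Bhmt, Gm15620 at Dmgdh, Gm17071 at Sardh and 1700060J05Rik at Slc44a1 overlap in the annotation but have no row in the table. Pemt had no neighbour within 5 kb.

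**Figure D4:**
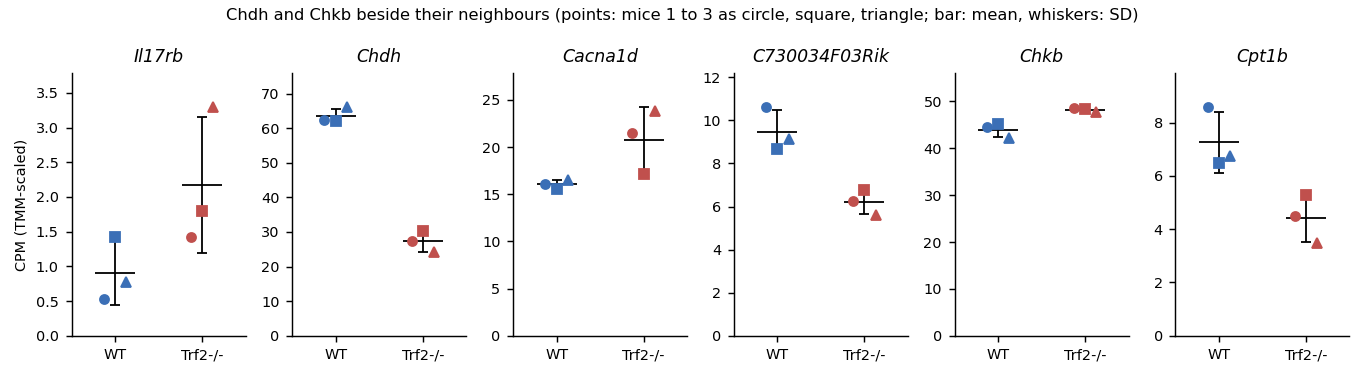
TMM-scaled CPM (vertical axes, from 0) of Chdh and Chkb, each between its neighbours, in WT (blue) and Trf2-/- (red) testis. Points are mice 1, 2 and 3 (circle, square, triangle), bars are means and whiskers SDs (n = 3). Chdh is low in the mutants while Il17rb and Cacna1d are not, and C730034F03Rik and Cpt1b are low beside Chkb, which was not called.

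The genes whose log2 CPM over the 6 mice was most like that of Chdh were Ccdc92, Rfc1, Zfp646, Zbtb5 and Atxn7l1, with Pearson correlations of 0.9993, 0.9993, 0.9992, 0.9991 and 0.999. Their decreases were smaller than that of Chdh, with log2 fold changes between -0.46 (Rfc1) and -0.72 (Zfp646). The 6 points fall into the 2 genotypes and share their libraries, and 269 genes (1.59% of those tested) had a correlation above 0.99, so this is a description only. Among the members, Pemt at 0.89 and Chka at 0.88 had the highest correlations with Chdh. Chkb at -0.9, Aldh7a1 at -0.79 and Slc44a1 at -0.77 had the lowest. Bhmt at -0.37, Sardh at -0.36 and Bhmt2 at 0.3 lay between. Of all these only Pemt was called.
Markers of several cell types differed between the genotypes, and their counts are read beside the 20.2% of all tested genes called lower and the 11.2% called higher. Of 9 tested round spermatid markers 7 were called lower, all 7 at 2-fold or more, with a median log2 fold change of -1.89 over the 9. Their summed level was 27.0, 26.3 and 24.3 CPM in WT and 17.2, 16.2 and 13 CPM in Trf2-/- mice. The mutant mean of this sum was 0.598 of the WT mean, a smaller decrease than that of the median tested marker. Only 3 of the 10 listed markers were above 3 counts in every mouse. Markers low in the mutants could pass the filter through their WT counts, which makes calls of lower likely. Elongating spermatid markers summed to between 6.28 and 7.78 CPM in WT and between 0.316 and 1.07 CPM in Trf2-/- mice. Of the 8 listed, 4 passed the filter through their WT counts and were called lower, which the filter made likely, and 0 were above 3 counts in every mouse.
The spermatocyte markers divided, with 4 lower and 3 higher of 9 and sums of 4580 to 4790 CPM in WT and 3450 to 3980 CPM in Trf2-/- mice. The 4 lower were Ccna1, Pgk2, Ldhc and Piwil1, with log2 fold changes of -1.63, -1.37, -0.70 and -0.25, and the 3 higher were Sycp1, Sycp3 and Hormad1, with 0.29, 0.24 and 0.17. Each of the 4 had its lowest value in Trf2-/- mouse 3, the mouse with the lowest Chdh. That mouse was also the lowest for Slc44a3, Pcyt2, Ptdss2 and Gde1, though not for Pemt or Flvcr1. The trait is therefore not particular to Chdh and these markers. Spermatogonial markers had 1 of 8 higher. Of the somatic lists, Sertoli cells had 4 of 9 higher, macrophages 5 of 8, Leydig cells 2 of 8, peritubular cells 1 of 6 and endothelial cells 1 of 5. No somatic marker was called lower. Their summed levels in WT and Trf2-/- mice were 1790 to 1910 and 2030 to 2210 CPM for Sertoli cells, 178 to 202 and 203 to 401 CPM for macrophages (401, 243 and 203 CPM in Trf2-/- mice 1 to 3), 244 to 415 and 244 to 397 CPM for Leydig cells, which overlap, 294 to 377 and 366 to 422 CPM for peritubular cells, 40 to 43.0 and 47.7 to 61.8 CPM for endothelial cells, and 249 to 266 and 257 to 342 CPM for spermatogonia. The 6 markers of liver and kidney parenchyma, the organs best known for this pathway, had at most 4 counts in every mouse. No marker of any list was at 0 in all mice, but 4 of the 8 elongating spermatid markers had at most 4 counts in every mouse. The part of cell composition in the level of Chdh or of any other member was not tested.
By the Gene Ontology terms in the deposited table, 6 of the 10 members carried a mitochondrial component (Chdh, Aldh7a1, Dmgdh, Sardh, Pemt and Slc44a1), as did 8.28% of all tested genes. The group was chosen by function, so that share is a description. Within these 6, Chdh and Pemt were called lower, Aldh7a1, Sardh and Slc44a1 were not called, and Dmgdh was not tested.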

How the data were processed

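The authors prepared TruSeq stranded, Ribo-Zero depleted libraries and sequenced single-end reads of 50 bases. Per the submitters' processing notes, CASAVA 1.8.2, TopHat2 2.0.10, Bowtie2 2.1.0, HTSeq 0.5.4p3 and DESeq2 1.0.19 were used on mm9. The authors deposited raw read counts per gene and mouse, with gene lengths and terms. The strand setting, the treatment of reads shared between genes and the annotation release are not given in the sources used here. The 12 columns of normalized values were not used.

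The deposited counts were fitted with edgeR 4.0.16 in R 4.3.3 (filterByExpr, TMM, glmQLFit, glmQLFTest, genotype only, all 6 mice) and adjusted by Benjamini-Hochberg over the 16924 genes kept, which held 99.9% of reads. Genes were called at an adjusted p under 0.05. Intervals are 95%, and those from summed counts of Bhmt2 and Dmgdh cover counting error only. Ratios of paralogs were log2 ratios of CPM per kilobase with nothing added, compared by two-sided exact permutation tests, and correlations with Chdh used log2 values with 0.1 CPM added. No pair of mice within a genotype agreed within sampling noise.

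The members and lists were chosen with earlier results of these data known. Named were all 10 members and up to 2 genes per pathway role and direction with the lowest adjusted p. Also named were genes overlapping or within 5 kb of a member, the 5 genes most correlated with Chdh, and Tbpl1. The marker genes, Bche, Slc5a7, Shmt1, Shmt2, Gldc, Mthfd1 and Cth were named after their values were seen. Coordinates are from GENCODE vM1 (NCBIM37), which held 26576 of the 26743 genes, 98.6% at the same coordinates; start windows are RefSeq on GRCm38.p6. Of 68 pathway and 78 marker genes, 67 and 77 had a row. Values of 2 pathway genes are counted with their role but not reported here. Alternatives were a 2-fold threshold, leaving out single mice, a replicate block, DESeq2 1.42.0 (its size factors or its Wald test), library size alone, and looser or stricter filters (1 count in all, or 10 per mouse).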

Additional observations from a re-analysis of the deposited data

How the results depend on the processing

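The log2 fold change of Chdh was between -1.30 and -1.12 in all 13 alternatives, a description, since Chdh was chosen on these counts. Directions and calls also stayed for Bhmt (0.10 to 0.90) and Sardh (0.04 to 0.23). Bhmt2 changed sign with library size alone (0.03), without Trf2-/- mouse 3 (0.24) and without WT mouse 1 (0.23), and was between -0.30 and 0.24 over the mice left out. Library size alone moved the median of all genes from 0.04 to 0.13. All genes called lower went from 3423 to 2691 and higher from 1889 to 4267 under it. For members these were 1 lower and 3 higher, and for the other pathway genes 6 lower and 24 higher in place of 11 and 13. A 2-fold threshold gave 727 lower and 103 higher over all genes, 1 lower member, and 1 lower and 0 higher pathway genes. Testing all genes with at least 1 count left 1 lower member, and testing those with at least 10 counts in each mouse gave 3, Chka being added. Leaving out each mouse in turn gave 2626 to 3332 genes lower and 780 to 1903 higher, 1 to 2 lower members, and 6 to 11 lower and 6 to 15 higher pathway genes. The causes were not tested. The paralog differences, recomputed without each mouse by an alternative added after seeing the data, kept their direction: -0.32 to -0.25 for Chka over Chkb, 0.45 to 1.05 for Bhmt over Bhmt2 and -1.27 to -0.64 for Dmgdh over Sardh.

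The replicate numbers did not pair the mice. This was read from the deviation of each mouse from its genotype's mean log2 CPM, over all tested genes. Between same-numbered mice these deviations had correlations of -0.0973, -0.0313 and -0.102. With the replicate number as a block 1 member was called lower, 3094 genes lower and 1486 higher. Depth limits Bhmt2 and Dmgdh, whose mutants reached 3 counts.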

Other observations

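A pair of folate enzymes, Mthfd2 and Mthfd2l, and a pair of serine hydroxymethyltransferases, chosen after their values were seen, are given as values with no test, since the pairs were picked for their opposite changes. The log2 ratio of Mthfd2 to Mthfd2l per kilobase was 2.48, 2.5 and 2.39 in WT and 3.81, 3.76 and 4.4 in Trf2-/- mice, a difference of 1.53 in the means, without overlap. The log2 ratio of Shmt2, the mitochondrial form, to Shmt1, the cytosolic form, was -1.4, -1.46 and -1.21 in WT and -0.87, -0.84 and -0.64 in Trf2-/- mice. This difference of 0.57 was also without overlap. Among the folate and glycine genes not described above, Gldc, the glycine decarboxylase, had a log2 fold change of -0.72 (edgeR adjusted p = 0.0283) and Mthfd1 of 0.33 (edgeR adjusted p = 0.0114). In the methionine cycle Cth, which makes cysteine from cystathionine, had a log2 fold change of 0.64 (edgeR adjusted p = 0.0151). Gldc, Mthfd1 and Cth were also picked after their values were seen.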
